A study of Homo sapiens with 12 samples.

Results

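Transcripts that were gained or lost, relative to the rest of the mRNA pool, over a full 4 h of blocked transcription were sought by setting 3 libraries taken 4 h after actinomycin D against 3 taken at 0 h, paired by replicate number. These are 6 of the 12 RNA-seq libraries of the series, and 12775 of the 26334 genes in the count table had enough counts to be tested. The cells, shA673-1c, were made from the Ewing sarcoma line A673 and carry an inducible short hairpin RNA. Every library, those at 0 h included, came from cells that had received doxycycline (DOX) at 1 µg per ml for 4 days to knock down the fusion transcript EWS::FLI1, and then actinomycin D at 5 µM. The remaining 6 libraries, from 1 h and 2 h, entered the gene filter, the scaling and the fit. There they share the estimates of the spread and of the replicate differences. Libraries without doxycycline or without actinomycin D were not analysed here, so neither the knockdown nor the vehicle can be judged, and shA673-1c is a single line.

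Actinomycin D binds DNA and stops RNA polymerases, so no new mRNA replaces what is degraded. mRNAs of regulators that cells switch on briefly are known to be short-lived, often through AU-rich elements in the 3′ untranslated region (3′ UTR) that recruit deadenylases, while mRNAs for ribosomes, metabolism and structure are known to be long-lived. Counts scaled to a common library size (CPM) are relative levels, so as short-lived mRNAs disappear those of the others grow without any synthesis. Fewer cells and less RNA per cell cannot be told apart in bulk samples, and the absolute loss of RNA was not measured.

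Total counts were 9381855 to 10929000 over the 12 libraries. Libraries of the same replicate number deviated together from their time means (r = 0.357 to 0.792 over 18 pairs, across 10261 genes that are not independent, against -0.654 to 0.258 for different numbers), and the fit held the number as a block. The level of FLI1, which includes reads of the fusion, was 19.8, 19.9 and 21.7 CPM at 0 h and 8.16, 7.01 and 7.10 CPM at 4 h. All 3 libraries at 4 h lay below all 3 at 0 h, with a log2 change of -1.47 (adjusted p = 3.001e-10, SE 0.14). EWSR1, the other fusion partner, stood at 244, 259.9 and 204 CPM at 0 h and 312, 314 and 262 CPM at 4 h, a log2 change of 0.33 (adjusted p = 1.484e-08, SE 0.04). With ribosomal protein mRNAs held constant that change was -0.044. Of the 8 tested Ewing sarcoma markers, FLI1 and EWSR1 included, 4 fell and 2 rose. NR0B1 (-1.11), BCL11B (-1.47) and NKX2-2 (-2.09) fell on the log2 scale, and STEAP1 (0.16) and PRKCB (0.27) did not pass. CAV1, caveolin-1, was called higher by 0.14, with overlapping groups, an adjusted p of 0.1807 without the block, and changes of -0.0068 with library totals and -0.2278 with ribosomal protein scaling. CD99, the surface antigen that defines these tumours, was listed at 0 in every library. CD99 lies in a region shared by the X and Y chromosomes, and 17 of the 18 genes listed from those regions had no read in any library. Among 14 markers of blood, epithelium, liver, endothelium and glia, HBB, a globin, was at 23.9, 26.1 and 17.7 CPM at 0 h and 14.8, 8.78 and 8.06 CPM at 4 h, while the markers HBA1 and HBA2, globins as well, were at 0 to 0.0915 CPM of raw totals. CD3E and HBA2 had no read in these 6 libraries, and the part of other cell types in the results was not tested.

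At an adjusted p under 0.05, 3934 genes (30.8% of those tested) were lower at 4 h and 4444 (34.8%) were higher, together 8378 (65.6%). The falls were the larger changes: 1483 genes (11.6%) fell over 2-fold, 477 (3.73%) over 4-fold and 144 (1.13%) over 8-fold, against 135 (1.06%) that rose over 2-fold. The lowest 5% of log2 changes lay below -1.79, and the highest 5% lay above 0.59. Of the genes called lower, 3876 fell in 3 of 3 replicate pairs, and of those called higher, 4373 rose in 3 of 3. In 3510 genes (27.5%) all 4 h libraries lay below all 0 h libraries, and in 3569 (27.9%) all lay above.

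How many genes count as higher depends on what is held constant. Under trimmed-mean (TMM) scaling the median log2 change of all tested genes was 0.05. With library totals it was -0.10, with 5028 genes lower and 2657 higher, and with scaling to ribosomal protein mRNAs it was -0.32, with 7354 lower and 471 higher. All 3934 genes called lower were lower under each of these 3 scalings. Both alternatives shifted the changes downward, so that agreement followed from the direction of the shift and is no separate check. The 471 genes (3.69%) that were higher under all 3 are those called higher with ribosomal protein scaling. Changes below use TMM, so a gene described as higher rose relative to the trimmed mean of genes, not always as a part of the library. Of the 4444 genes called higher, 2657 were also higher with library totals. Scalings are named where they turn a direction. Of the genes named below as higher, 25 lost their call with ribosomal protein scaling while keeping a positive change.

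The 20 largest falls were taken among genes with at least 5 CPM at the higher time and no overlap between the groups. They included many known stress and signalling regulators, such as NFKBIA, DUSP1 and JUN, beside genes such as PARS2. The 3′ UTRs of the 20 were searched, and 8 held the AU-rich heptamer TATTTAT, written as DNA. The first such site is shown for each of these 8. Each line gives the heptamer in capitals with 10 bases on either side, 5′ to 3′ on the strand of the mRNA, read from the GENCODE release 29 transcript (GRCh38) used for that gene.
NUAK2: tttttattttTATTTATttatttattt
NFKBIA: ccacattttaTATTTATtgtgcttcga
PLK2: ataaacttttTATTTATtacagcccaa
DUSP1: ggctggtcctTATTTATttaacttcac
SNAI1: ggtacactggTATTTATatttcaaaca
JUN: tgcttatgaaTATTTATaacagcattc
KLF2: ctgtgactggTATTTATtggacccaga
SGK1: aaatgggcatTATTTATgttttttttt
Counted from the base after the stop codon, the capitals begin at base 538 of 1391 in NUAK2 (chromosome 1, minus strand), base 297 of 502 in NFKBIA (chromosome 14, minus strand), base 500 of 601 in PLK2 (chromosome 5, minus strand), base 102 of 672 in DUSP1 (chromosome 5, minus strand). They begin at base 732 of 830 in SNAI1 (chromosome 20, plus strand), base 1239 of 1287 in JUN (chromosome 1, minus strand), base 81 of 843 in KLF2 (chromosome 19, plus strand), base 774 of 1022 in SGK1 (chromosome 6, minus strand). In NUAK2 and DUSP1 the printed heptamer runs on into further TTTA repeats. The heptamer is not particular to the fallers: it was found in 33.0% of the 12038 tested genes with a coding transcript in GENCODE. It was in 40.3% of those that fell over 4-fold, 43.5% at 2 to 4-fold and 41.2% in smaller falls. Its share thus did not grow with the size of the fall. Among genes that rose by over 0.5 on the log2 scale it was in 13.8%. A match is a description of the letters and not a measured binding site.

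The level of NFKBIA, which encodes an inhibitor that holds NF-kappa-B in the cytoplasm, was 36.2, 41.5 and 41.7 CPM at 0 h and 1.02, 1.25 and 0.424 CPM at 4 h. Its 2.29% of the starting TMM-scaled level left at 4 h was a log2 change of -5.45 (adjusted p = 3.939e-21, SE 0.17). PLK2, a polo-like kinase induced by stress, stood at 178, 174 and 122 CPM at 0 h and 4.31, 4.92 and 4.77 CPM at 4 h, with 2.98% left (log2 change of -5.07 with adjusted p = 1.833e-24 and SE 0.12). DUSP1, a phosphatase that switches off stress-activated kinases, went from 33.7 CPM in its lowest 0 h library to 1.59 CPM in its highest 4 h library (log2 change of -4.87 with adjusted p = 2.447e-19 and SE 0.19). In each of the 3 the 4 h libraries lay far below those of 0 h, and replicate 3 started lowest for PLK2 and DUSP1.

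JUN, which forms AP-1 with FOS proteins, was at 117, 125 and 104 CPM at 0 h and 6.23, 6.17 and 4.35 CPM at 4 h, a log2 change of -4.37 (adjusted p = 1.448e-24, SE 0.10). SGK1, a kinase induced by serum and glucocorticoids, was at 188, 200.0 and 150.1 CPM at 0 h and 7.03, 9.20 and 11.2 CPM at 4 h, a log2 change of -4.28 (adjusted p = 3.946e-24, SE 0.10). SNAI1, a repressor of epithelial genes, was at 15.3, 16.4 and 19.03 CPM at 0 h and 0.793, 0.732 and 0.424 CPM at 4 h, and KLF2, a zinc finger factor, was at 9.16, 11.4 and 6.61 CPM at 0 h and 0.680, 0.209 and 0.424 CPM at 4 h. No 4 h library reached the level of a 0 h library in any of these 4 genes. NUAK2, an AMPK-related kinase, had the largest fall among genes with at least 5 CPM, from 10.2 ± 2.32 to 0.184 ± 0.136 CPM (SD, n = 3), with a log2 change of -5.72 (adjusted p = 9.27e-15, SE 0.34).

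**Figure D1:**
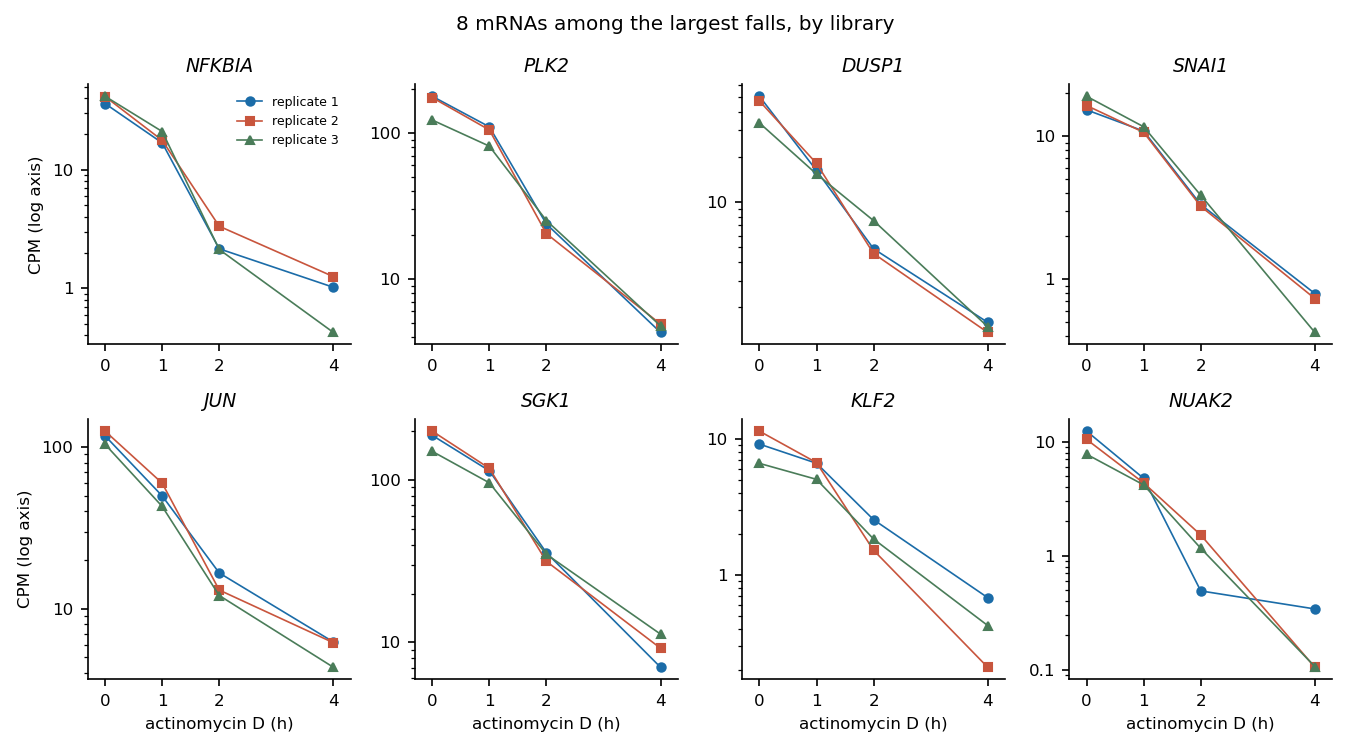
Scaled read counts (CPM, log axis, a separate range in each panel) in each library against hours of actinomycin D for 8 of the 20 mRNAs with the largest falls, whose 3′ UTRs hold the heptamer; symbols and colours mark replicates 1 to 3. Each line goes down between 0 h and 4 h, and for NFKBIA from 36.2, 41.5 and 41.7 to 1.02, 1.25 and 0.424 CPM.

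The other 10 that were searched had no such heptamer in the transcript used. HES1, a repressor downstream of Notch, was at 20.6, 25.8 and 25.1 CPM at 0 h and 0.907, 0.837 and 0.848 CPM at 4 h, a log2 change of -4.77 (adjusted p = 1.772e-19, SE 0.18). DDIT4, an inhibitor of mTORC1, was at 34.6, 31.6 and 46.97 CPM at 0 h and 1.36, 0.941 and 0.848 CPM at 4 h. CITED2, which binds the CH1 domain of the acetylases CBP and p300, was at 163, 157 and 107 CPM at 0 h and 7.48, 6.90 and 6.15 CPM at 4 h. SERTAD3, a small transcriptional coregulator, went from 19.3 ± 0.838 to 0.753 ± 0.0862 CPM (SD, n = 3), and GADD45B, a stress-induced regulator of kinase signalling, from 24.02 ± 3.72 to 1.31 ± 0.666 CPM. PARS2, the mitochondrial prolyl-tRNA synthetase, was at 6.52, 4.81 and 6.17 CPM at 0 h and 0.340, 0.105 and 0.212 CPM at 4 h, a log2 change of -4.68 (adjusted p = 1.087e-12, SE 0.35). The groups did not overlap in any of these 6 genes, again as the rule required. DDIT4 was highest at 0 h in replicate 3 and lowest there at 4 h.

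Regulators that cells induce for a short time fell nearly as whole groups. Of 26 immediate early transcription factors, 25 fell and SRF, the factor that drives many of them, did not pass (log2 change 0.09), with a list median of -2.62 beside 0.05 for all tested genes. IER2, an immediate early nuclear protein, was at 54.95, 56.6 and 49.5 CPM at 0 h and 5.44, 3.35 and 2.97 CPM at 4 h, and KLF6, a zinc finger tumour suppressor, at 380.3, 403 and 289 CPM at 0 h and 84.3, 79.2 and 55.04 CPM at 4 h. The first kept 7.25% of its TMM-scaled level and the second 20.3%, and in both the times were apart. MYC, which drives growth and cell division, was at 93.95, 94.4 and 72.3 CPM at 0 h and 5.33, 4.29 and 3.39 CPM at 4 h, a log2 change of -4.33 (adjusted p = 1.718e-24, SE 0.10).

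Of 34 feedback inhibitors of kinase signalling 30 fell, with a median of -1.60. DUSP6, which acts on ERK, was at 243, 259 and 244 CPM at 0 h and 13.03, 12.2 and 13.6 CPM at 4 h, a log2 change of -4.26 (adjusted p = 3.496e-27, SE 0.07). DUSP5, also specific for ERK, was at 134, 113 and 59.3 CPM at 0 h and 8.95, 7.22 and 4.35 CPM at 4 h, and 0 h replicate 3 started below replicates 1 and 2. PHLDA1 (-2.69), a pleckstrin-domain protein, and DUSP4 (-1.98), a nuclear phosphatase, fell less on the log2 scale. PHLDA2, an imprinted relative of PHLDA1, was the 1 member that rose, from 16.2 ± 2.84 to 24.9 ± 2.35 CPM (SD, n = 3; log2 change of 0.62 with adjusted p = 0.0001383 and SE 0.13), and with ribosomal protein scaling its adjusted p was 0.1051.

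In the NF-kappa-B list 7 of 14 fell and 3 rose (1 without the block). The inhibitors NFKBIA and TNFAIP3, a ubiquitin editor that ends signalling, had log2 changes of -5.45 and -1.996. The subunits REL (-1.20) and NFKB1 (-0.47) fell less. NFKBIB, a second inhibitor of the IκB family, rose from 17.2 ± 2.22 to 24.1 ± 2.002 CPM (SD, n = 3; log2 change of 0.48 with adjusted p = 3.448e-05 and SE 0.09), and scaled to ribosomal protein mRNAs it had a change of 0.11. Among inhibitors of TGF-beta and BMP signalling 11 of 14 fell, with TGIF1 (-2.55), a homeodomain corepressor of SMADs, BAMBI (-3.03), a decoy receptor, and SKIL (-1.14), a SMAD corepressor, among them. The 1 member that rose was CHRD, an extracellular BMP antagonist, and that call ended in 11 of the alternatives, the fit without the block among them, in which 7 members fell and none rose.

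The circadian clock list, of which 12 of 18 fell and 2 rose (1 without the block), had its largest fall in BHLHE40. BHLHE40, a repressor of clock genes, was at 23.6, 29.03 and 30.4 CPM at 0 h and 2.38, 1.57 and 1.59 CPM at 4 h, and NFIL3, a bZIP repressor, at 21.5, 23.7 and 19.2 CPM at 0 h and 2.61, 1.67 and 1.80 CPM at 4 h. NR1D1 (-3.49), a repressor of the core loop at a low level, fell as well, and PER1 (-1.12), a period protein, fell less, and CRY1 (-0.05) and ARNTL (-0.25), a cryptochrome and a core activator, did not pass.

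In each class of DNA-binding factors examined more members fell than rose, and the classes differed in depth. Of 393 C2H2 zinc finger genes with ZNF names 326 (83.0%) fell and 15 rose (7 without the block), with a median of -1.11. ZNF281, a regulator of pluripotency genes, was at 47.4, 42.8 and 35.2 CPM at 0 h and 2.61, 2.51 and 2.86 CPM at 4 h, ZNF217, a factor amplified in some tumours, at 74.5, 66.4 and 66.7 CPM at 0 h and 13.5, 9.83 and 11.9 CPM at 4 h, and ZNF148 at 59.9, 66.9 and 61.6 CPM at 0 h and 9.29, 10.9 and 12.9 CPM at 4 h. The 3 genes were lower in every 4 h library than in any 0 h library. ZNF276 was among the 15 that rose, from 27.1 ± 3.50 to 38.9 ± 3.77 CPM (SD, n = 3; log2 change of 0.52 with adjusted p = 2.86e-06 and SE 0.08), and scaled to ribosomal protein mRNAs its change was 0.15. All 10 tested SOX factors fell, with a median of -1.62. SOX9, a regulator of cartilage and stem cells, was at 91.9, 114 and 83.7 CPM at 0 h and 10.99, 13.7 and 15.2 CPM at 4 h, SOX4 at 29.2, 38.8 and 47.1 CPM at 0 h and 4.19, 4.60 and 5.94 CPM at 4 h and SOX11 at 60.5, 64.7 and 57.3 CPM at 0 h and 14.4, 13.4 and 16.01 CPM at 4 h, and SOX2 went from 10.95 ± 4.17 to 0.623 ± 0.445 CPM (SD, n = 3).

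Forkhead factors fell in 20 of 23, with a median of -1.63, among them FOXO3 (-2.64), which drives stress and cell death genes, and FOXJ3 (-1.63). FOXM1, the forkhead factor of dividing cells, was the 1 that rose. It stood at 79.8, 56.1 and 85.7 CPM at 0 h and 94.1, 73.9 and 119 CPM at 4 h, so the groups overlapped while each pair rose (log2 change of 0.37 with adjusted p = 3.074e-06 and SE 0.06). The adjusted p without the block was 0.2484, and under ribosomal protein scaling the change was at -0.00. KLF and SP factors fell in 15 of 17, with KLF10 (-3.51) and KLF4 (-3.07) among the larger falls, and none rose. Of 79 homeobox factors 56 fell and 2 rose, with ADNP (-2.06), a chromatin-bound homeodomain protein, among those that fell. The ADNP level was 126, 126 and 126 CPM at 0 h and 27.99, 28.4 and 33.9 CPM at 4 h.

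The remaining classes were more mixed, beside 30.8% lower and 34.8% higher among all tested genes. Nuclear receptors fell in 19 of 28 and rose in 4 (2 without the block), among them NR2F2 (-1.65), an orphan receptor, RARA (-1.56), a retinoic acid receptor, and ESRRA (0.50), an orphan receptor of mitochondrial genes that rose. ETS factors, the family of FLI1, fell in 11 of 16 and rose in 1, with ELF1 (-2.26), ETV3 (-2.45) and ETS2 (-1.44) lower. bZIP factors fell in 28 of 45 and rose in 8 (4 without the block), with FOSL2 (-2.20), an AP-1 subunit, and BACH1 (-1.82), a repressor of haem genes, lower. bHLH factors fell in 26 of 52 and rose in 9 (5 without the block), and AHR, the aryl hydrocarbon receptor, was at 157, 169 and 197 CPM at 0 h and 48.5, 56.6 and 64.4 CPM at 4 h. In the E2F, SMAD, TEAD, STAT and IRF list 17 of 31 fell and 7 rose (3 without the block). IRF1 (-2.93), an interferon regulatory factor, and SMAD1 (-2.07), which carries BMP signals, fell, and STAT6 (0.47), which carries interleukin-4 signals, and E2F1 (0.48), an activator of S phase genes, rose. E2F1 groups overlapped, at 34.7, 49.6 and 58.5 CPM at 0 h and 46.7, 67.7 and 84.7 CPM at 4 h, and its adjusted p without the block was 0.1713.

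Signalling lists held members that fell and members that rose, as did all tested genes (30.8% lower and 34.8% higher). Of 49 secreted growth factors and cytokines 14 (28.6%) fell, near the background share of 30.8%, and 9 (18.4%, beside 34.8%) rose. CYR61, a matrix-bound YAP target, was at 448, 459 and 324 CPM at 0 h and 36.04, 32.00 and 42.8 CPM at 4 h, and BDNF (-2.73), a neurotrophin, and PDGFA (-1.37) fell as well. BMP1, a procollagen protease, rose from 189.8 ± 11.4 to 303 ± 14.8 CPM (SD, n = 3; log2 change of 0.68 with adjusted p = 6.59e-15 and SE 0.04), and MDK, the growth factor midkine, had a change of 0.50. Receptor tyrosine kinases rose in 15 of 36 (41.7%, beside 34.8%) and fell in 8 (22.2%, beside 30.8%), against 6 and 3 without the block. Their median of 0.15 turned to -0.22 with ribosomal protein scaling. PDGFRB, a receptor of platelet-derived growth factor, was at 173, 198 and 278 CPM at 0 h and 251, 291 and 393 CPM at 4 h, highest in replicate 3 at both times, with overlapping groups and a rise in each pair (adjusted p = 8.65e-13, and 0.08587 without the block). PTK7 (0.49) rose, and EPHB3 (-1.88) and ROR1 (-0.75) fell.

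In the Wnt list 18 of 30 (60.0%) fell and 6 (20.0%) rose, beside 30.8% and 34.8% of all tested genes. FZD8 (-1.89), a receptor, and GSK3B (-1.06) and APC (-1.01), both of the complex that destroys beta-catenin, fell, LRP5 (0.48), a coreceptor, rose, and CTNNB1, beta-catenin itself, did not pass (0.01). In the Notch and Hedgehog list 12 of 30 fell and 8 rose (5 without the block). The coactivators MAML2 (-2.79) and MAML1 (-1.36) and the Hedgehog effector GLI3 (-1.79) fell, RFNG (0.68), which modifies Notch with sugar, rose, and the receptor NOTCH2 (0.04) did not pass. Of 26 Hippo genes and YAP targets 15 (57.7%) fell and 4 (15.4%, and 1 member without the block) rose. AMOTL2, an angiomotin that binds YAP, was at 127, 126 and 76.04 CPM at 0 h and 32.3, 28.97 and 27.5 CPM at 4 h, and YAP1 (0.03) did not pass.

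Survival and stress genes with known rapid turnover stood among those that fell. MCL1, an unstable member of the BCL2 family that blocks apoptosis, was at 136, 145 and 116 CPM at 0 h and 38.9, 35.5 and 37.01 CPM at 4 h, and BMF, which promotes apoptosis, at 32.4, 33.7 and 42.1 CPM at 0 h and 6.80, 5.86 and 8.48 CPM at 4 h. In the family 6 of 14 (42.9%, beside 30.8% of all) fell and 5 (35.7%, beside 34.8%; 3 without the block) rose, BAD (0.49), a death promoter, among the latter. Of 27 p53-linked genes 15 fell and 3 rose. BTG1, an antiproliferative protein that binds deadenylases, was at 49.9, 47.9 and 46.97 CPM at 0 h and 4.42, 2.82 and 2.65 CPM at 4 h, PPM1D (-3.60), a phosphatase that ends the p53 response, and AEN (-1.79), a nuclease, fell, and MDM4, an inhibitor of p53, rose from 34.5 ± 1.57 to 57.1 ± 2.10 CPM (SD, n = 3; log2 change of 0.73 with adjusted p = 6.639e-11 and SE 0.07). CDKN1A, the p53 target that halts the cycle, did not pass (-0.08). In the integrated stress and unfolded protein lists 12 of 25 (48.0%) fell and 9 (36.0%, beside 34.8% of all; 2 without the block) rose. The transcription factors DDIT3 (-2.97) and XBP1 (-2.10) and the phosphatase subunit PPP1R15A (-1.93) were lower, and the chaperone HSP90B1 (0.45) higher.

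Cell cycle genes showed both directions, as did all tested genes (30.8% lower and 34.8% higher). Of 26 cyclins and kinase inhibitors 10 (38.5%) fell and 7 (26.9%) rose, against 6 and 4 without the block. CDKN1B, the inhibitor p27, was at 25.1, 23.8 and 30.8 CPM at 0 h and 2.83, 3.45 and 6.999 CPM at 4 h, CCNT1 (-1.89), the cyclin of elongation, and CCNF (-1.46) fell, and CCNL2 (0.74), a cyclin bound to splicing speckles, rose. DNA replication genes rose in 25 of 50 and fell in 16, which became 3 and 8 without the block, and their median of 0.14 turned to -0.01 with library totals and -0.23 with ribosomal protein scaling. LIG1, the ligase of lagging strands, was at 40.7, 44.96 and 72.7 CPM at 0 h and 61.7, 77.9 and 116 CPM at 4 h, TK1, thymidine kinase, at 66.5, 65.9 and 107 CPM at 0 h and 98.5, 93.2 and 159 CPM at 4 h and POLE, the leading strand polymerase, at 114, 123 and 153 CPM at 0 h and 157, 188 and 229.9 CPM at 4 h. Replicate 3 was highest at both times in each of the 3, the groups of LIG1 and TK1 overlapped, and their adjusted p without the block was 0.09885 and 0.1153. CDT1, which loads the replicative helicase, fell (-1.12). Mitosis genes fell in 23 of 52 (44.2%) and rose in 10 (19.2%), against 5 and none without the block. KIF18A (-1.33), a kinesin, and AURKA (-0.77), a spindle kinase, were lower and KNTC1 (0.51), a kinetochore protein, higher (adjusted p without the block 0.2266).

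Ubiquitin ligase adaptors of the F-box and BTB families fell in 54 of 96 (56.2%) and rose in 17 (17.7%). RING and TRIM ligases fell in 61 of 121 (50.4%) and rose in 25 (20.7%), beside 30.8% and 34.8% of all tested genes. FBXO34, an F-box protein, was at 27.2, 28.7 and 27.1 CPM at 0 h and 2.72, 2.41 and 2.33 CPM at 4 h, and FBXO42 (-2.56), SIAH1 (-3.17) and TRIM32 (-2.94), 2 of them RING ligases, fell as well. KCTD13, a BTB adaptor, rose from 11.7 ± 1.10 to 21.9 ± 1.35 CPM (SD, n = 3; log2 change of 0.90 with adjusted p = 3.193e-08 and SE 0.11). Deubiquitinases were nearer those shares, with 26 of 64 (40.6%) lower, USP38 (-2.04) among them. Of the 64, 17 (26.6%, and 9 members without the block) were higher, UCHL1 (0.50) among them.

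Histone-modifying enzymes fell in 39 of 69 and rose in 12. KAT6A, a histone acetylase, was at 78.7, 82.4 and 83.3 CPM at 0 h and 13.5, 12.9 and 17.5 CPM at 4 h, and the acetylases EP300, at 126, 105 and 109.8 CPM at 0 h and 36.8, 36.3 and 34.7 CPM at 4 h, and CREBBP (-1.60) fell, while the deacetylase HDAC1 (0.43) rose. Chromatin remodellers fell in 22 of 49 (44.9%, beside 30.8% of all tested genes) and rose in 17 (34.7%, beside 34.8%). ARID1A, the DNA-binding subunit of SWI/SNF, was at 138, 121 and 126 CPM at 0 h and 36.7, 31.8 and 32.4 CPM at 4 h, CHD1 (-1.79) fell, and CHD3 (0.57), of the NuRD complex, rose. Among RNA polymerase II subunits, general factors and Mediator 35 of 79 (44.3%) fell, MED9 (-3.22) among them. In the same list 26 (32.9%, near the share of all) rose, the polymerase subunit POLR2E (0.52) among them.

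Lists of genes that handle RNA differed in how near they stood to the shares of all tested genes. Splicing factors fell in 38 of 103 (36.9%, beside 30.8%), RBM15 (-2.22) among them, and rose in 39 (37.9%, beside 34.8%), SNRPB (0.40) among them, with a median of 0.00, and without the block 25 fell. In the list of deadenylation, decapping and exosome genes 24 of 59 (40.7%) fell and 18 (30.5%; 10 without the block) rose, beside 30.8% lower and 34.8% higher among all tested genes. Among the 6 that fell over 4-fold were BTG1, TOB1 (-2.81) and TOB2 (-2.23), which bind deadenylases, and CNOT4 (-2.25). SMG5 (0.45), a factor of nonsense-mediated decay, rose. Of 32 regulators that bind AU-rich and other 3′ ends 14 (43.8%, beside 30.8%) fell and 5 (15.6%, beside 34.8%; 2 without the block) rose. ZFP36L2, which directs AU-rich mRNAs to decay, was at 81.7, 96.2 and 67.7 CPM at 0 h and 21.1, 19.7 and 23.1 CPM at 4 h, and PUM2 at 114, 125 and 116 CPM at 0 h and 51.2, 52.8 and 56.2 CPM at 4 h.

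Ribosomal protein mRNAs gained share almost as a whole group. Of 80 cytosolic ribosomal protein genes 77 (96.2%) rose, with a median of 0.37, and by construction the median under ribosomal protein scaling was near 0 (-0.00), where 8 rose and 12 fell. mRNAs of this kind are known to start with a C and a run of pyrimidines, the 5′ terminal oligopyrimidine (TOP) motif, which places their translation under mTOR. The first 24 transcribed bases are shown from RefSeq (GRCh38.p14) for 2 ribosomal protein genes and a translation factor with small adjusted p, for those 4 of the 6 most abundant ribosomal protein genes whose annotated start has the motif, and for RPL36A, the 1 ribosomal protein gene that fell, with the pyrimidine run in capitals, 5′ to 3′ on the gene's strand.
RPS19: CCCTTTCCCCTggctggcagcgcg
RPL37A: CTTTCTgggctcggacctaggtcg
GNB2L1: CTCTCTTTCactgcaaggcggcgg
RPLP0: CCTTCTCTCgccaggcgtcctcgt
RPS18: CTCTCTTCCacaggaggcctacac
RPL7A: CTTTCTCTCTCCTCCCgccgccca
EEF1B2: CCTTTTTCCTCTCTTCagcgtggg
RPL36A: CTTTCTTTCCgcgccgatagcgct
These stretches, each at the first exon, lie for RPS19 at chr19:41860255-41860278 (plus strand), RPL37A at chr2:216498844-216498867 (plus strand), GNB2L1 at chr5:181243883-181243906 (minus strand), RPLP0 at chr12:120201088-120201111 (minus strand). They lie for RPS18 at chr6:33272075-33272098 (plus strand), RPL7A at chr9:133348218-133348241 (plus strand), EEF1B2 at chr2:206159895-206159918 (plus strand), RPL36A at chrX:101391011-101391034 (plus strand). A start with C and at least 5 pyrimidines in a row was annotated in 47 (72.3%) of the 65 ribosomal protein genes with a RefSeq promoter, in 11 (22.0%) of 50 translation factors and in 790 (7.60%) of all 10396 matched genes. Of the 47 genes 46 rose, and of the 18 ribosomal protein genes without that annotated start 17 rose. The 743 other genes with such a start had a median log2 change of 0.10, and 297 of the 743 rose, against 34.4% of genes without it.

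RPS19 was at 540.2, 519.7 and 522 CPM at 0 h and 740.3, 749 and 759 CPM at 4 h, and RPL37A at 610.0, 579.6 and 583 CPM at 0 h and 807, 803 and 828 CPM at 4 h. The 4 h libraries of both lay above all 0 h libraries, with a log2 change of 0.51 (adjusted p = 1.98e-13, SE 0.03) for the first. RPL36A was at 5.19, 5.09 and 4.67 CPM at 0 h and 0.907, 0.941 and 1.70 CPM at 4 h, a log2 change of -2.06 (adjusted p = 1.569e-07, SE 0.28), with a start as rich in pyrimidines as the others. Its reads can be shared with an overlapping readthrough gene, so its count is uncertain. Translation initiation and elongation factors rose in 35 of 61 (57.4%) and fell in 8 (13.1%), beside 34.8% and 30.8% of all tested genes. Without the block 21 rose. EEF1D (0.56) and EEF1B2 (0.42), exchange factors of elongation, rose, and EIF5, which triggers GTP hydrolysis at the start codon, fell from 447 ± 37.8 to 210.2 ± 47.9 CPM (SD, n = 3; log2 change of -1.11 with adjusted p = 2.168e-15 and SE 0.06), as did EIF1AD (-1.52). Aminoacyl-tRNA synthetases rose in 20 of 36 (55.6%, and 12 members without the block) and fell in 4 (11.1%), with VARS (0.42) higher. Mitochondrial ribosomal proteins rose in 30 of 75 and fell in 15 (16 and 9 without the block), with MRPL44 (-1.20) lower. The medians of these 3 lists, at 0.12, 0.14 and 0.07, turned to -0.03, -0.01 and -0.08 with library totals and to -0.25, -0.23 and -0.30 with ribosomal protein scaling.

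Factors that build ribosomes fell more often than they rose. Of 72 ribosome biogenesis factors 40 (55.6%) fell and 13 rose (4 without the block), with a median of -0.19. WDR43 was at 114, 122 and 87.5 CPM at 0 h and 26.5, 30.1 and 21.6 CPM at 4 h, and MPHOSPH10 at 59.96, 60.5 and 63.1 CPM at 0 h and 18.8, 16.2 and 15.3 CPM at 4 h. Both belong to the particle that processes the RNA of the small subunit. RRS1, a large subunit assembly factor, was at 29.7, 34.3 and 24.7 CPM at 0 h and 9.07, 8.05 and 4.98 CPM at 4 h, and IMP3 (-1.80) fell too. Each of these had 4 h libraries below all 0 h libraries.

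Noncoding RNAs did not form a single group. Of 269 transcripts with LINC or antisense names 55 (20.4%) fell and 44 (16.4%) rose, both below the shares of all tested genes. Their median level was 2.56 CPM at 0 h, against 27.7 CPM for all. In the lowest of 5 equal classes of mean CPM over 0 h and 4 h, 26.3% of tested genes were lower and 12.8% higher. The part of level in these shares was not tested. Reads of overlapping antisense partners may not have been told apart. A list of long noncoding RNAs, most of them known as nuclear, rose in 8 of 14 and fell in 1, with a median of 0.53 that remained positive, at 0.16, under ribosomal protein scaling. MALAT1, retained in nuclear speckles, was at 159, 175 and 148 CPM at 0 h and 492, 640.4 and 709.5 CPM at 4 h, a log2 change of 1.92 (adjusted p = 6.825e-20, SE 0.07). NEAT1, the scaffold of paraspeckles, was at 174, 200.2 and 154 CPM at 0 h and 394, 347 and 435 CPM at 4 h, and MEG3, an imprinted transcript, at 133, 98.3 and 85.8 CPM at 0 h and 286, 201 and 219 CPM at 4 h. KCNQ1OT1, an imprinted antisense transcript, was at 9.54, 4.90 and 3.08 CPM at 0 h and 17.2, 15.9 and 15.6 CPM at 4 h, with replicate 1 highest at 0 h and the 4 h libraries close together. LINC00657, a cytoplasmic RNA that binds Pumilio proteins, was the 1 that fell, from 251 ± 15.1 to 152 ± 25.1 CPM (SD, n = 3; log2 change of -0.73 with adjusted p = 4.828e-14 and SE 0.05). Host genes of snoRNAs fell in 11 of 23 (47.8%, beside 30.8% of all) and rose in 5 (21.7%, beside 34.8%), with SNHG12 (-2.10) lower. Of 37 annotated snoRNAs 27 (73.0%) fell and 3 rose, with a median of -1.78 and low levels (median 1.48 CPM at 0 h). Most snoRNAs lie in introns and carry no poly(A) tail, and whether their reads came from snoRNA or from unspliced host transcripts was not tested.

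**Figure D2:**
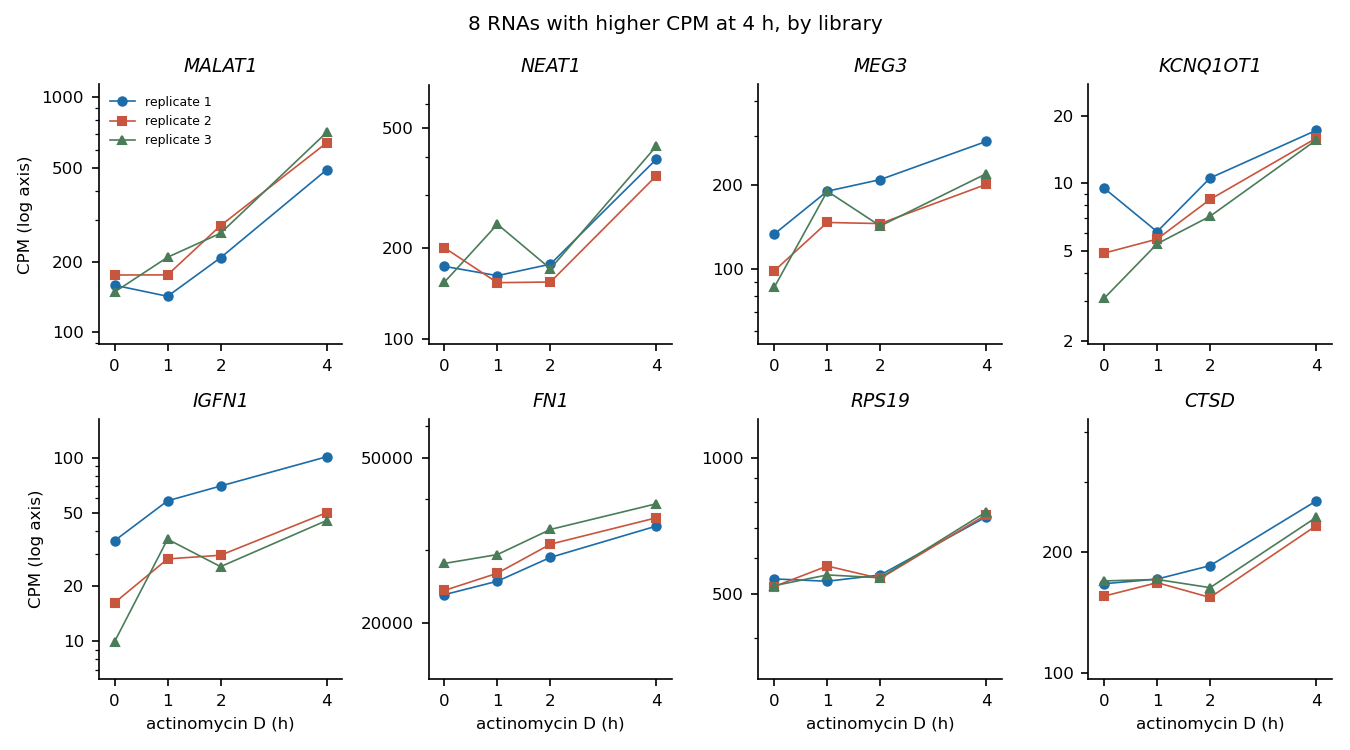
CPM (log axis, a separate range in each panel) in each library against hours of actinomycin D for 4 noncoding RNAs and 4 mRNAs that were called higher at 4 h; symbols and colours mark replicates 1 to 3. MALAT1 went from 148 to 175 CPM at 0 h to 492 to 709.5 CPM at 4 h, and RPS19 from 519.7 to 540.2 CPM to 740.3 to 759 CPM.

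Most genes of energy metabolism gained share. Complex I of the respiratory chain rose in 39 of 46 and fell in 2 (1 without the block), complexes II to IV rose in 26 of 39 and fell in 4 (2 without the block), ATP synthase rose in 16 of 19, the citric acid cycle in 21 of 25 and glycolysis in 19 of 22, with none lower in the last 3 lists. Medians lay between 0.28 and 0.39 with TMM. With ribosomal protein scaling the medians of the first 4 were below 0 and that of glycolysis was just above it. NDUFA11, a complex I subunit, was at 46.9, 54.1 and 61.1 CPM at 0 h and 79.6, 87.01 and 91.4 CPM at 4 h, and NDUFA10 (0.50), COX7A2 (0.51), ATP5J2 (0.60), MDH2 (0.45) and ALDOA (0.46) rose. GAPDH, often used as a constant reference, was at 5678, 4761 and 4895 CPM at 0 h and 7602, 6491 and 6690.0 CPM at 4 h, a log2 change of 0.44 (adjusted p = 6.001e-14, SE 0.03), and ACTB, another such reference, had a change of 0.33 that turned to -0.039 with ribosomal protein scaling. Exceptions that fell were NDUFV3 (-0.95), an accessory subunit of complex I, and COX10, which makes the haem of complex IV, from 14.1 ± 1.85 to 6.79 ± 1.64 CPM (SD, n = 3).

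Genes of sterol synthesis and uptake moved in both directions. Of 29 genes 15 (51.7%, beside 34.8% of all) rose and 7 (24.1%, beside 30.8%) fell, against 9 and 3 without the block. Their median of 0.11 turned to -0.04 with library totals and -0.26 with ribosomal protein scaling. INSIG1, which holds SREBP in the endoplasmic reticulum, was at 146, 181 and 148 CPM at 0 h and 57.3, 65.2 and 73.4 CPM at 4 h, with the 4 h libraries below all 0 h libraries. DHCR7 (0.42) and LSS (0.42), enzymes of sterol synthesis, rose.

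mRNAs of the secretory pathway and the lysosome rose in most members, and those of chaperones in fewer. Genes of endoplasmic reticulum translocation, glycosylation and folding rose in 39 of 45 and fell in 2 (1 without the block), with P4HB, a disulfide isomerase, from 1257 ± 35.9 to 1722 ± 22.7 CPM (SD, n = 3; log2 change of 0.45 with adjusted p = 1.888e-13 and SE 0.03). Lysosomal genes rose in 48 (96.0%) of 50 and none fell, with a median of 0.43 that stayed above 0, at 0.06, with ribosomal protein scaling. CTSD, a lysosomal protease, was at 167, 155 and 169 CPM at 0 h and 268, 233 and 244 CPM at 4 h, and PSAP, the saposin precursor, at 1455, 1411 and 1404 CPM at 0 h and 2044, 1940.1 and 1863 CPM at 4 h. The proton pump of the lysosome, the V-ATPase, rose in 15 of 22, ATP6V0E2 (0.55) among them. Proteasome genes rose in 33 of 47 (70.2%, beside 34.8% of all tested genes) and fell in 4 (8.51%, beside 30.8%). PSME1 (0.45), an activator subunit, was higher and PSMD5 (-0.44), an assembly chaperone, lower. Chaperones rose in 26 of 57 (45.6%) and fell in 14 (24.6%), both nearer the shares of all. DNAJB1, an inducible co-chaperone, was at 177, 166 and 144 CPM at 0 h and 63.1, 50.6 and 43.6 CPM at 4 h, and BAG5 (-2.16) fell too. With ribosomal protein scaling the medians turned from 0.34 to -0.03 for the endoplasmic reticulum list, from 0.30 to -0.07 for the V-ATPase, from 0.21 to -0.16 for the proteasome and from 0.08 to -0.29 for chaperones, and that of chaperones also turned, to -0.07, with library totals.

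Matrix and cytoskeleton genes also gained share. Collagens, laminins, integrins and other matrix proteins rose in 70 of 92 and none fell, with a median of 0.42. FN1, fibronectin, was at 23421, 23976 and 27867 CPM at 0 h and 34315, 35935 and 38852 CPM at 4 h, FBN2, a fibrillin, at 434, 431 and 363 CPM at 0 h and 642, 690.2 and 596 CPM at 4 h and LAMB1, a laminin chain, at 860.4, 809.9 and 828 CPM at 0 h and 1216, 1152 and 1194 CPM at 4 h. Each 4 h library exceeded each 0 h library in these 3, and COL1A1 (0.08) and THBS1 (-0.02), a collagen chain and a thrombospondin, did not pass. Actin and tubulin genes rose in 40 of 49 and fell in 3 (1 without the block), with a median of 0.33 that turned to -0.05 with ribosomal protein scaling. FLNA (0.53), an actin crosslinker, rose, and TUBB4B, a tubulin, fell from 465 ± 3.23 to 379 ± 25.3 CPM (SD, n = 3; log2 change of -0.30 with adjusted p = 9.606e-07 and SE 0.04). Iron, copper and redox genes rose in 27 of 35 and fell in 2 (1 without the block). Those that fell were GCLC (-0.74), the rate-limiting enzyme of glutathione synthesis, and HMOX1, haem oxygenase, at 7.93, 6.13 and 5.20 CPM at 0 h and 4.87, 2.72 and 3.18 CPM at 4 h (adjusted p = 0.0003217, and 0.1083 without the block), while GSTP1 (0.47) rose.

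Genes described in earlier work as activated or repressed by EWSR1::FLI1 included members that fell and members that rose, as did all tested genes (30.8% and 34.8%). Of 29 described as activated 13 (44.8%) fell and 9 (31.0%; 3 without the block) rose, with a median of -0.03. Of 22 described as repressed 9 (40.9%) fell and 9 (40.9%; 5 without the block) rose, with a median of 0.03. The median of the repressed list turned to -0.12 with library totals and to -0.34 with ribosomal protein scaling, where 0 members rose. That of the activated list was -0.17 and -0.39 under these 2 scalings. SPRY1, an inhibitor of receptor signalling on the activated list, was at 9.73, 12.8 and 26.1 CPM at 0 h and 0.793, 0.732 and 1.59 CPM at 4 h, with replicate 3 highest at both times. ID2 (-2.41), an inhibitor of bHLH factors, and RCOR1 (-1.30), a corepressor, fell from the same list. On the repressed list IER3, an immediate early gene, was at 131, 149 and 149 CPM at 0 h and 7.25, 6.90 and 21.8 CPM at 4 h, with 4 h replicate 3 above replicates 1 and 2, and LOX (0.42), a collagen crosslinker, and TNC (0.41), tenascin, rose. Since all cells carried the induced hairpin, the effect of the fusion and that of mRNA lifetime cannot be told apart.

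**Figure D3:**
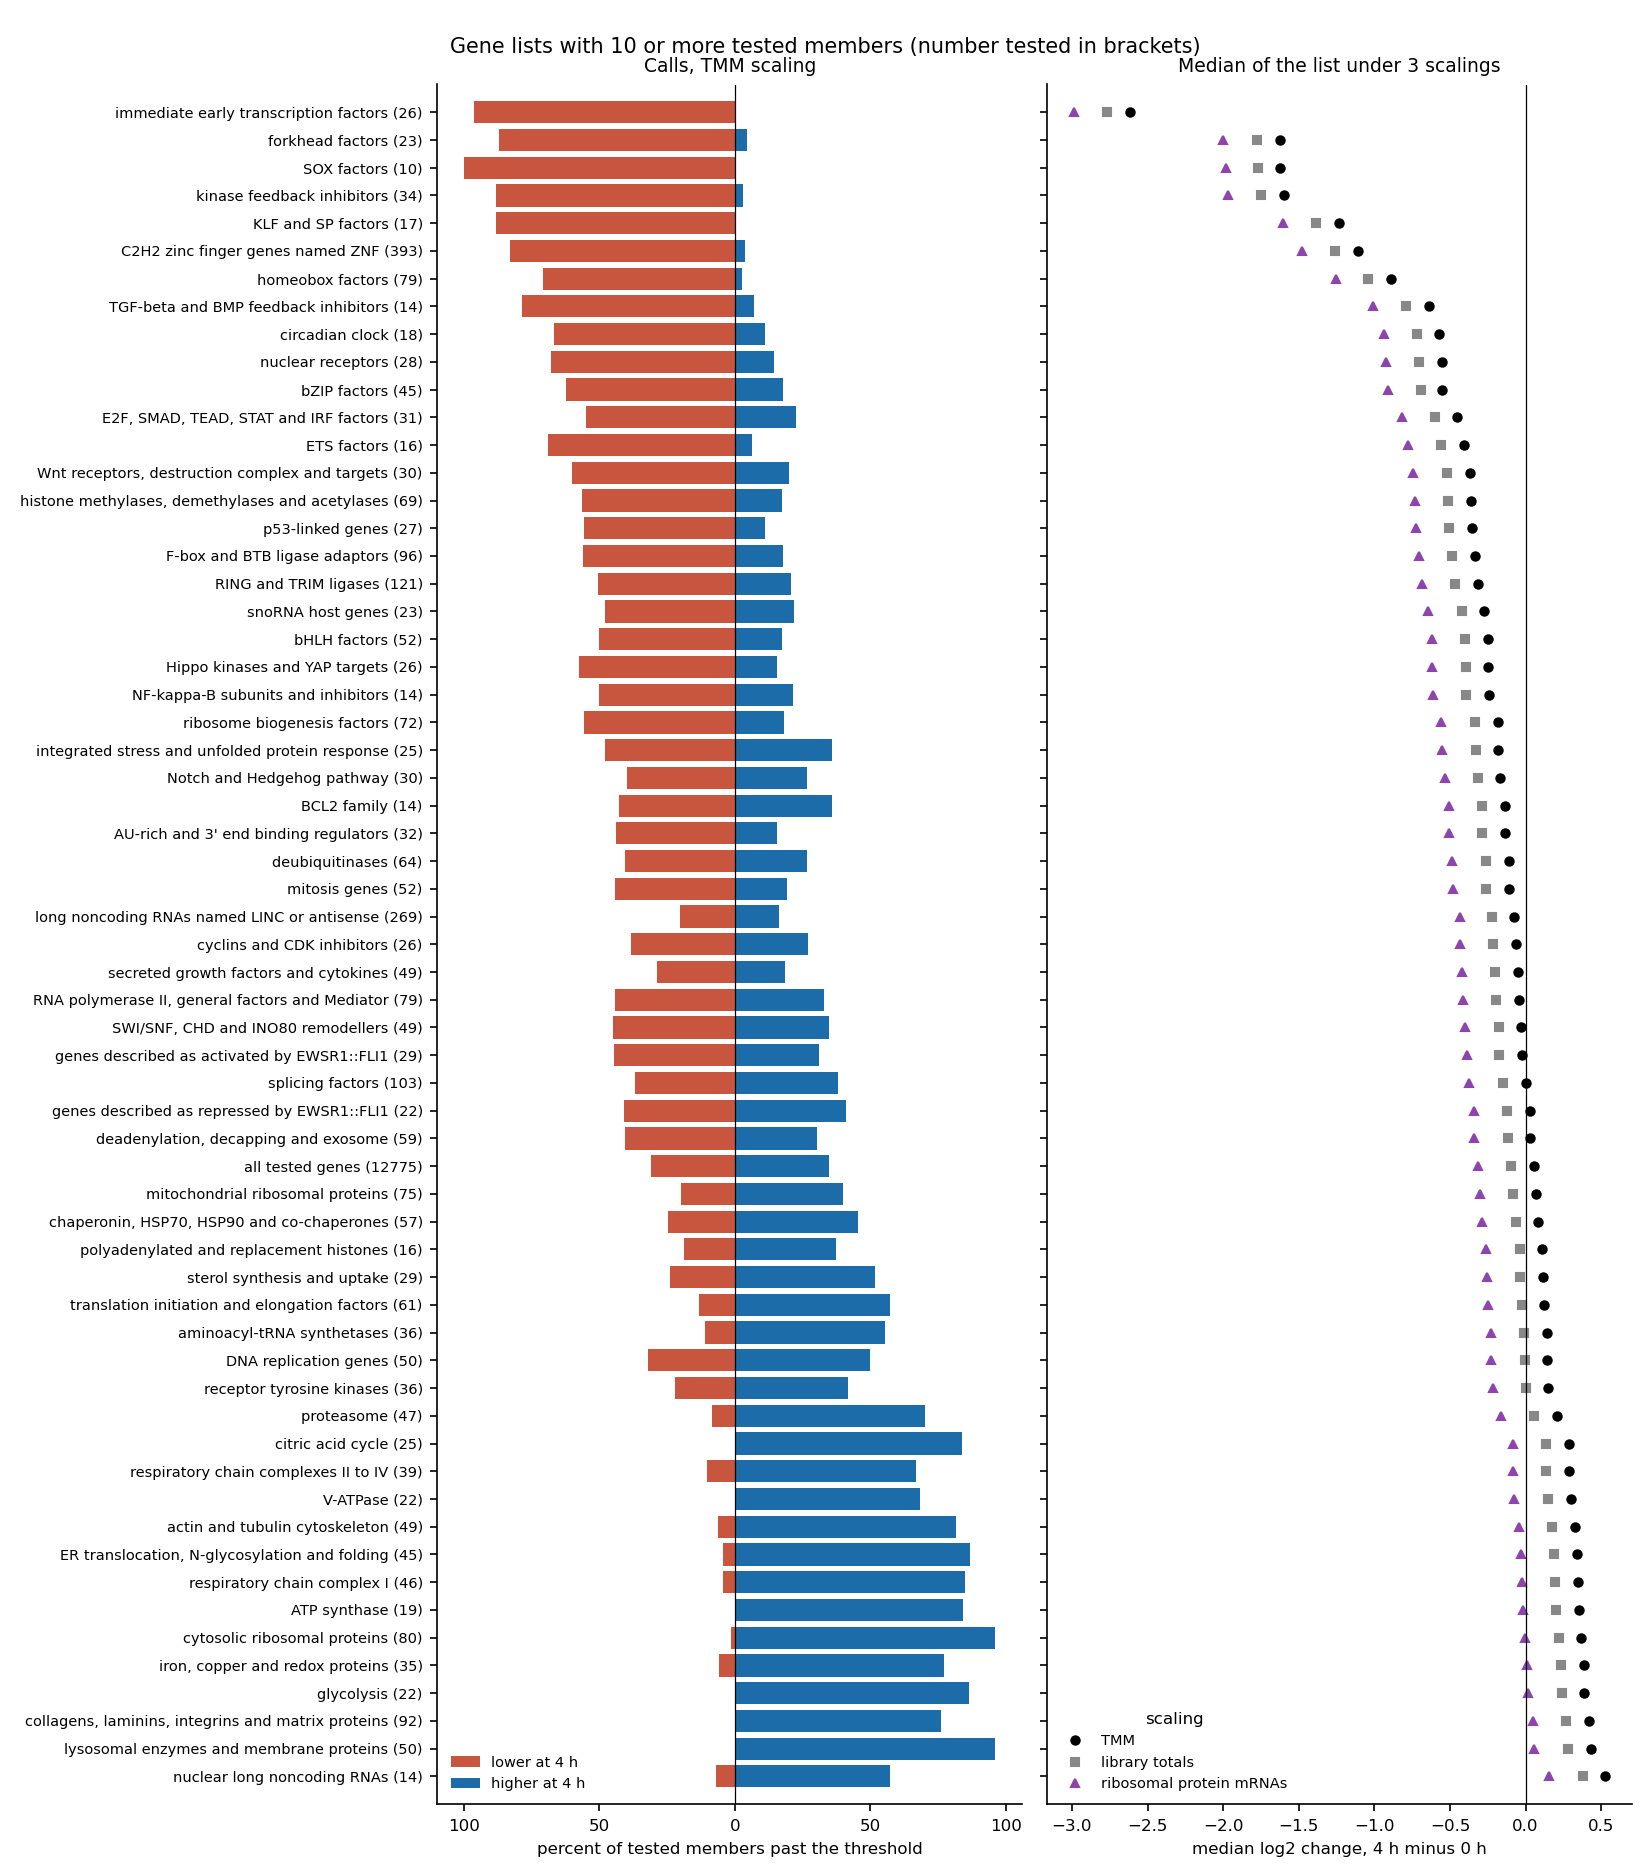
For each gene list with at least 10 tested members, and for all tested genes, the left panel shows the percent of tested members called lower (red, to the left) and higher (blue, to the right) at 4 h, and the right panel the median log2 change under TMM scaling (circles), library totals (squares) and scaling to ribosomal protein mRNAs (triangles). Immediate early factors are at the top with 96.2% lower and a median of -2.62, lysosomal genes near the bottom with 96.0% higher and a median of 0.43, and each change of scaling moves all lists to the left.

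Transcript structure, taken from GENCODE release 29 for 12038 (94.2%) of the tested genes and chosen as a description after values of these data were known, differed along the scale of change. Genes with 1 exon were lower in 164 of 234 (70.1%) and higher in 15 (6.41%), with a median log2 change of -0.79. Genes with 2 exons were lower in 311 of 525 (59.2%). At over 10 exons 1365 of 5293 (25.8%) were lower and 2121 (40.1%) higher. A fall over 4-fold was called in 26.5% of 1-exon genes and in 0.529% of genes with over 10 exons. The median number of exon junctions per kb of coding sequence was 1.62 in genes that fell over 4-fold, 2.96 at 2 to 4-fold, 5.45 in smaller falls and 7.51 in rises of under 0.5 on the log2 scale. Many zinc finger and SOX genes are known to have few exons or long coding exons, and the parts of exon number, gene class and expression level in these shares were not tested separately.

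The median coding length was 1443 bases in genes that fell over 4-fold, 1728 at 2 to 4-fold, 1650 in smaller falls, 1257 in rises of under 0.5 on the log2 scale and 1516 in larger rises, against 1446 in all. The 3′ UTR was longer in genes that fell, with medians of 1270 bases at over 4-fold, 1592 at 2 to 4-fold and 1606 in smaller falls, against 850 in rises of under 0.5 on the log2 scale and 418 in larger rises. Its median share of A and T was 60.6% in falls over 4-fold, 60.9% at 2 to 4-fold, 60.4% in smaller falls and 44.5% in rises of over 0.5 on the log2 scale. The Pumilio motif TGTANATA was present in 39.9% of 3′ UTRs of genes that fell over 4-fold, 44.6% at 2 to 4-fold and 39.6% in smaller falls. Of all it was in 27.5%, and of those larger rises in 8.25%. Longer 3′ UTRs hold more motifs by length alone, so the heptamer TATTTAT was also read within tertiles of 3′ UTR length. Genes with it were lower in 23.9%, 33.2% and 44.9% of the shortest, middle and longest tertile, and genes without it in 20.4%, 31.0% and 35.8%. The share called lower thus grew with length in both, and within each tertile it was higher with the heptamer. Length was not matched within any tertile, and the longest ran from 1832 to 32870 bases, so length and heptamer cannot be told apart in any of them.

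**Figure D4:**
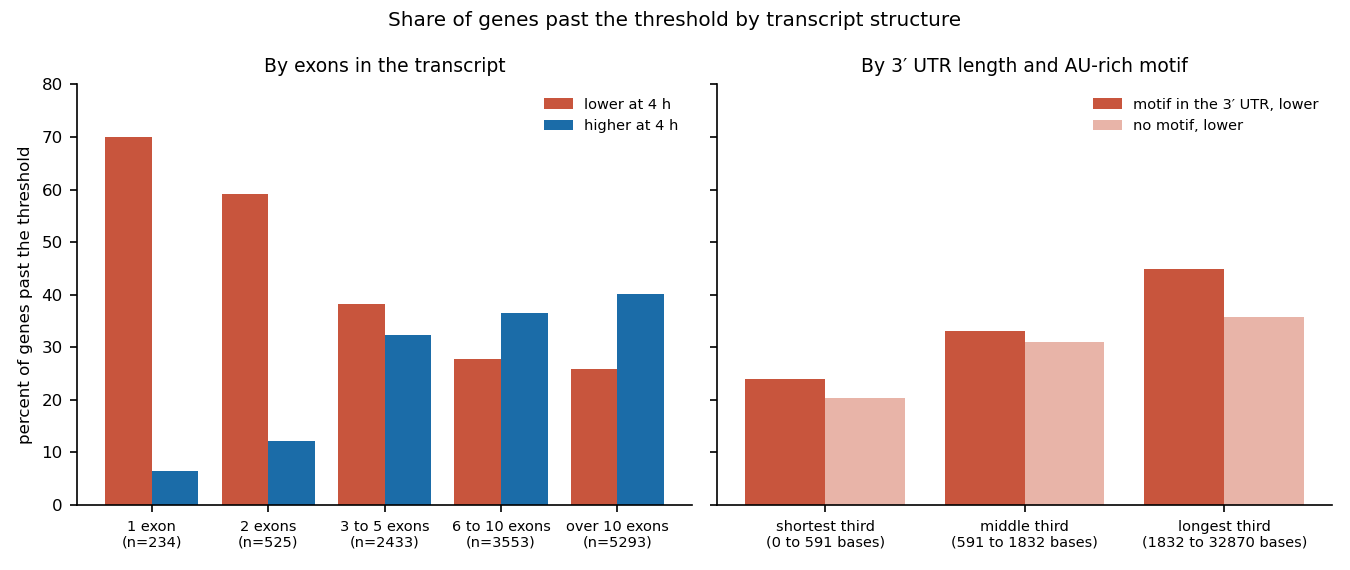
The left panel shows the percent of genes called lower (red) and higher (blue) by the number of exons in the GENCODE transcript used, from 1 exon to over 10, and the right panel the percent called lower by tertile of 3′ UTR length with (dark) and without (light) the heptamer TATTTAT. Lower calls go from 70.1% at 1 exon to 25.8% at over 10 exons, and from 20.4% in the shortest tertile without the heptamer to 44.9% in the longest with it.

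Expression level set how small a change could be called. In the lowest of 5 equal classes of mean CPM over 0 h and 4 h, the median standard error was 0.28 on the log2 scale. In that class 26.3% of genes were lower and 12.8% higher. In the highest class the median standard error was 0.05, and 16.2% were lower and 67.2% higher. A fall over 2-fold was called in 17.5% of the lowest class and 2.04% of the highest. Since the classes include the 4 h level, a fall itself moves a gene toward a lower class and a rise toward a higher one. The shares by class are thus partly built in, and the part of level was not tested. By chromosome, using RefSeq positions of 12619 genes, the share of lower genes ran from 24.2% on X to 38.9% on 18. Chromosome 19, which holds 171 of the tested ZNF genes, had 33.1% lower and 41.6% higher, and without its ZNF genes 18.4% lower and 51.5% higher.

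Among genes with at least 5 CPM at the higher time and no overlap between the groups, MALAT1 had the largest rise. The 20 largest rises also included these genes. IGFN1, a muscle immunoglobulin-domain gene, was at 35.3, 16.2 and 9.96 CPM at 0 h and 101, 50.2 and 45.5 CPM at 4 h, with replicate 1 highest at both times and a log2 change of 1.71 (adjusted p = 1.07e-13, SE 0.11). CCDC84, a coiled-coil protein of the spliceosome, was at 4.34, 4.15 and 2.56 CPM at 0 h and 9.86, 11.6 and 8.80 CPM at 4 h, and ENOSF1, a gene that overlaps the thymidylate synthase gene on the opposite strand, at 7.46, 7.45 and 9.96 CPM at 0 h and 16.9, 18.6 and 21.8 CPM at 4 h. LIME1 (1.38), a lymphocyte adaptor, and APLP1 (1.27), a relative of the amyloid precursor, rose as well. CPS1, an enzyme of the urea cycle, was at 3.30, 2.73 and 2.73 CPM at 0 h and 3.97, 10.7 and 6.68 CPM at 4 h, and its 4 h libraries spread more widely than those of the other genes named here. These 6 genes were higher under all 3 scalings. Of protein-coding genes 3.54% were higher under all 3, against 5.61% of long noncoding RNAs and 9.71% of transcribed pseudogenes, whose reads can be shared with their parent genes.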

How the data were processed

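Raw counts for each gene symbol were deposited for 12 libraries of polyadenylated RNA, and the library kit was a stranded TruSeq one, per the labels' protocols. The submitters' processing notes list FastQC, STAR and build hg19 with no version. How reads were counted, with which annotation and strand setting, is not given in the sources used here. Genes that are near-identical, overlapping or antisense to each other may thus share reads. The labels name the replicates biological.

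Counts were analysed in R 4.3.3 with edgeR 4.0.16: filterByExpr on the time groups left 12775 genes, libraries were scaled by TMM, and 4 h minus 0 h was tested by quasi-likelihood in a model of time and replicate number over all 12 libraries. Benjamini-Hochberg adjustment covered the 12775 genes, and an adjusted p under 0.05 was called. Dividing the size of the log2 change by the root of the F statistic gave the standard error (SE). CPM were computed on TMM-scaled totals, and on raw totals where so stated. Replicate numbers paired the libraries: correlations of deviations were 0.439 to 0.728 between 0 h and 4 h libraries of the same number. No 2 libraries of the same time agreed within counting noise (chi-square per degree of freedom 4.27 to 15.8), so each counted as 1 replicate. The procedure was tested on simulated data.

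The members, the gene lists, the tests and the rule for named genes were chosen with earlier results of these data known. Named genes were the 20 largest falls and rises past the threshold, with at least 5 CPM at the higher time and no overlap. For each list up to 4 called members with the smallest adjusted p, up to 2 called the other way and up to 2 not called were also eligible, and FLI1, EWSR1, GAPDH, ACTB and MYC always. A selection of these is reported. Transcript features were read from GENCODE release 29, taking the principal coding transcript, and start sequences from RefSeq. These builds differ from hg19, so they were joined by symbol alone. Promoter motifs by size of change are not reported, since too few genes of some classes had a RefSeq promoter, and protein length and zinc finger repeats were not analysed here.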

Additional observations from a re-analysis of the deposited data

How the results depend on the processing

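The 3934 lower and 4444 higher genes were 3148 and 2975 without the replicate block, all of them among the blocked calls, and 3597 and 3593 with DESeq2 1.42.0. With DESeq2 size factors in edgeR they were 4042 and 4217, with no filter 3962 and 4462, with at least 5 CPM 3363 and 4007, and with only the 6 libraries compared 4162 and 4112. Leaving out 1 library or 1 replicate number gave 3476 to 3776 lower and 3769 to 4097 higher genes. Scaling moved the counts most: library totals gave 5028 lower and 2657 higher, and scaling to ribosomal protein mRNAs gave 7354 lower and 471 higher. Of the gene lists with at least 5 tested members, 37 had more lower than higher members, 57 with ribosomal protein scaling and 34 to 44 under the other alternatives. The share of genes with 1 or 2 exons called lower was 62.6%, and 55.6% to 79.7% under the alternatives, which were applied to it after the data were seen. Of the genes named with a test, EWSR1 (-0.044), ACTB (-0.0392), FOXM1 (-0.0002) and CAV1 (-0.2278) turned direction with ribosomal protein scaling, and CAV1 (-0.0068) with library totals, with the cause not tested. CHRD lost its call without 0 h replicate 1 or 3, without 4 h replicate 1 or 2, and without replicate 1 or 3. Counting precision limits genes of low level, and with 3 replicates the p-values measure the spread between these samples of 1 line.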
